A study of Mus musculus with 6 samples.

Results

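Ribosomal protein genes encode the proteins of the cytoplasmic ribosome, and 85 of the 14125 genes in the deposited count matrix belong to this group by their symbols. A gene was taken where its symbol began with Rpl or Rps and a digit, or was Rplp0, Rplp1, Rplp2 or Rpsa. Kinases of the Rps6k family and symbols marked as pseudogenes with -ps were left out. Of these 85 members, 77 encode a standard protein of either subunit. The other 8 are Rpl22l1, Rps27l, Rpl36al, Rpl39l and Rpl7l1, named as relatives of a standard gene, Rps4l and Rpl37rt, which the annotation lists as transcribed processed pseudogenes, and Rps19bp1, whose product binds the protein of Rps19. Fau, which encodes a ribosomal protein fused to a ubiquitin-like sequence, falls outside the symbol rule and is given among the related genes.

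The ribosome has a large subunit, whose proteins carry Rpl symbols, and a small subunit, whose proteins carry Rps symbols. Rplp0, Rplp1 and Rplp2 form the stalk of the large subunit that recruits translation factors. Ribosomal protein mRNAs begin with a C followed by a run of pyrimidines, the 5′ terminal oligopyrimidine (TOP) motif, through which mTOR signalling and LARP1 control their translation. Naive lymphocytes are small cells that hold these mRNAs in large amounts, and activation raises their output of ribosomes and of protein. The counts below are of mRNA and do not measure ribosomes or translation.

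Cells came from lymph nodes of 7 pregnant mice mated to BALB/c males, all of which received diphtheria toxin for the first 9 days of pregnancy and were taken at embryonic day 9.5. The 4 Aire-DTR mice (mice 8, 36, 4 and 7) carry the toxin receptor in Aire-expressing cells, so toxin removes those cells, and the 3 WT mice (6, 97 and 1) received the same toxin. Mouse 4 is recorded as resorbed and the other Aire-DTR mice as growth restricted. Each mouse gave a uterine-draining node (udLN) and a brachial node (brLN), which makes 14 mouse-by-node samples. Mice were loaded in 3 pools, pool 1 with mice 8 and 6, pool 2 with 36 and 97, and pool LN with 4, 7 and 1. Uterine cells were not analysed here.

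The matrix listed 2127 cells of pool LN a second time, with identical counts, all from 1 well and from mice 1, 4 and 7. Each cell was used once, which left 7300 cells and 22833288 unique molecular identifiers (UMIs, each a count of 1 captured mRNA) of the 9427 cells and 29210327 UMIs deposited. Among these, 208 barcodes occurred in more than 1 well, with different counts. Cells held a median of 2910 UMIs (range 235 to 12050), and a mouse and node held 48 to 1060 cells and 155098 to 3351478 UMIs. Cell types and CD4 subsets are the authors' deposited names. Several markers were placed as the names say. Cd79a had a UMI in 98.3% of B cells and in 2.99% of CD4+ Naive T cells. Cd3e was found in 94.8% of CD4+ Naive T cells, and Cd8b1 in 98.6% of CD8+ Naive T cells. Other markers were less clear-cut. Cd8b1 was also found in 19.1% of CD4+ Mem T, 11.6% of CD4+ Treg and 8.75% of CD4+ Naive T cells. For Cd8a these values were 12.9%, 5.49% and 1.53%. Cd3e was found in 31.5% of NK and 32.9% of Myeloid cells. Whether the CD4+ Mem T cells include CD8 cells was not tested. Foxp3 was found in 55.2% of CD4+ Treg, 15.6% of CD4+ Mem T and 1.23% of CD4+ Naive T cells, at median depths of 2523, 3268 and 2903 UMIs. Sorting for CD45+ CD3+ cells is stated in the protocol and for CD45+ cells in the design, and 2267 of the cells are B cells.

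Start-site sequences show how the motif that names this class of mRNA looks in its genes, and where a search at the annotated starts found no match. RefSeq promoters (GRCm38.p6) were at hand for 64 of the 85 members. Each line below gives 15 bases before and 15 bases from the first transcribed base on the gene's strand. Capitals mark a C followed by at least 4 pyrimidines at the first base, and each CTTTC that begins within 10 bases of it. The first set holds members with such a match.
Rps27: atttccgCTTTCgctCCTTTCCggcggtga
Rplp2: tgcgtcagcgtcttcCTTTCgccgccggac
Rps21: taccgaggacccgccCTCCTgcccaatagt
Rpl13a: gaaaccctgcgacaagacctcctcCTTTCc
Rpl7a: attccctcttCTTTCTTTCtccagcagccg
These windows lie at chr3:90213634-90213663 (minus strand), chr7:141447636-141447665 (plus), chr2:180257364-180257393 (plus), chr7:45128731-45128760 (minus) and chr2:26910792-26910821 (plus). In Rpl13a CTTTC begins 9 bases after the annotated first base. In Rpl7a 2 overlapping copies begin 5 bases and 1 base before it, and Rps27 has a copy 8 bases before it beside the run at the start.

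The second set holds members without a match that differ between cell types in the results below.
Rps24: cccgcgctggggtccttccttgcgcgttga
Rps19: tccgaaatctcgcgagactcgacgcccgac
Rps27l: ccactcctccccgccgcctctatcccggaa
Rpl7l1: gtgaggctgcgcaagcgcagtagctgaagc
They lie at chr14:24490663-24490692 (plus), chr7:24884577-24884606 (plus), chr9:66946071-66946100 (plus) and chr17:46782642-46782671 (minus). Over the 64 members, 12 (18.8%) had a C and at least 4 pyrimidines at the first base, against 2.49% of the 27025 genes in the table. CTTTC lay within 10 bases of the start in 14 members (21.9%), against 3.06% of all genes, and 19 members (29.7%) had either motif, against 5.18%. CTTTT, searched in the same window, was found in 4 members (6.25%) and 2.50% of all genes. Matches were searched on the gene's own strand only, the motifs can overlap, and a match is no proof of a TOP mRNA. The lack of a match is no proof against one either, since a general run counted only at the exact annotated base. In Rps24 a C followed by more than 4 pyrimidines begins just before that base and was not counted.

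The 85 members held 7929817 UMIs, 34.7% of all UMIs of the matrix. The 5 with most UMIs were Rps24 (267553; chromosome 14, 24487125 to 24496959), Rps15a (249312; chromosome 7, 118104372 to 118116188), Rps20 (237505; chromosome 4, 3831334 to 3835665), the stalk gene Rplp1 (234921; chromosome 9, 61913284 to 61914542) and Rpl41 (226754; chromosome 10, 128548114 to 128549305). The 10 highest held 27.2% of member UMIs, so the sum is spread over many genes. At the other end, Rpl39l had 23 UMIs, Rpl37rt 33, Rps4l 113 and Rps19bp1 854, and 7 members had under 5000. Counts are of 3′ ends, 1 per molecule, and are not divided by transcript length. Members lie on 19 chromosomes, 4 of them on X. Ribosomal protein genes have many processed copies: a median of 31.6% of a member's 31-base words also occurs in transcripts of other genes, and 20 members share most of theirs. How reads shared between genes were counted is not given in the sources used here, so levels of single members with many shared words, such as Rplp1 (75.1%), Rpl36 (94.1%) and Rps6 (66.2%), are uncertain.

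The share of a cell type's UMIs that came from members differed more between cell types than between mice. Naive T cells stood at the upper end of the T and B cells, with 36.8% ± 0.793 (SD, n = 7 mice) in CD4+ Naive T and 39.0% ± 0.443 (n = 7) in CD8+ Naive T cells. CD4+ Mem T cells had 29.3% ± 0.799 (n = 7) and B cells 29.1% ± 0.649 (n = 7). CD4+ Treg cells lay between them at 32.8% ± 0.849 (n = 6), and CD8+ Mem T cells had 40.9% ± 0.932 (n = 6). Shares of the rarer types are given over all their cells: 31.8% in 73 gdT cells, 25.04% in 54 NK cells and 21.2% in 73 Myeloid cells. Types were named from expression of the same cells, so these values are descriptions with no test.

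By mouse, the share in CD4+ Naive T cells was 36.03% in mouse 8, 36.2% in mouse 36, 36.3% in mouse 97, 36.5% in mouse 1, 36.9% in mouse 6, 37.8% in mouse 4 and 38.0% in mouse 7. In CD4+ Mem T cells it was 28.6% in mouse 36, 28.7% in mice 97 and 1, 28.8% in mouse 4, 29.9% in mice 7 and 8, and 30.6% in mouse 6. The 2 sets of values do not overlap: the highest memory value lies below the lowest naive one. The difference was −7.50 percentage points (SD 1.01), lower in 7 of 7 mice, and ranged from −9.02 in mouse 4 to −6.12 in mouse 8. From CD4+ Naive T cells, B cells differed by −7.69 points (SD 0.809, lower in 7 of 7 mice), CD4+ Treg cells by −3.97 (SD 0.979, lower in 6 of 6) and CD8+ Naive T cells by 2.20 (SD 0.708, higher in 7 of 7).

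**Figure D1:**
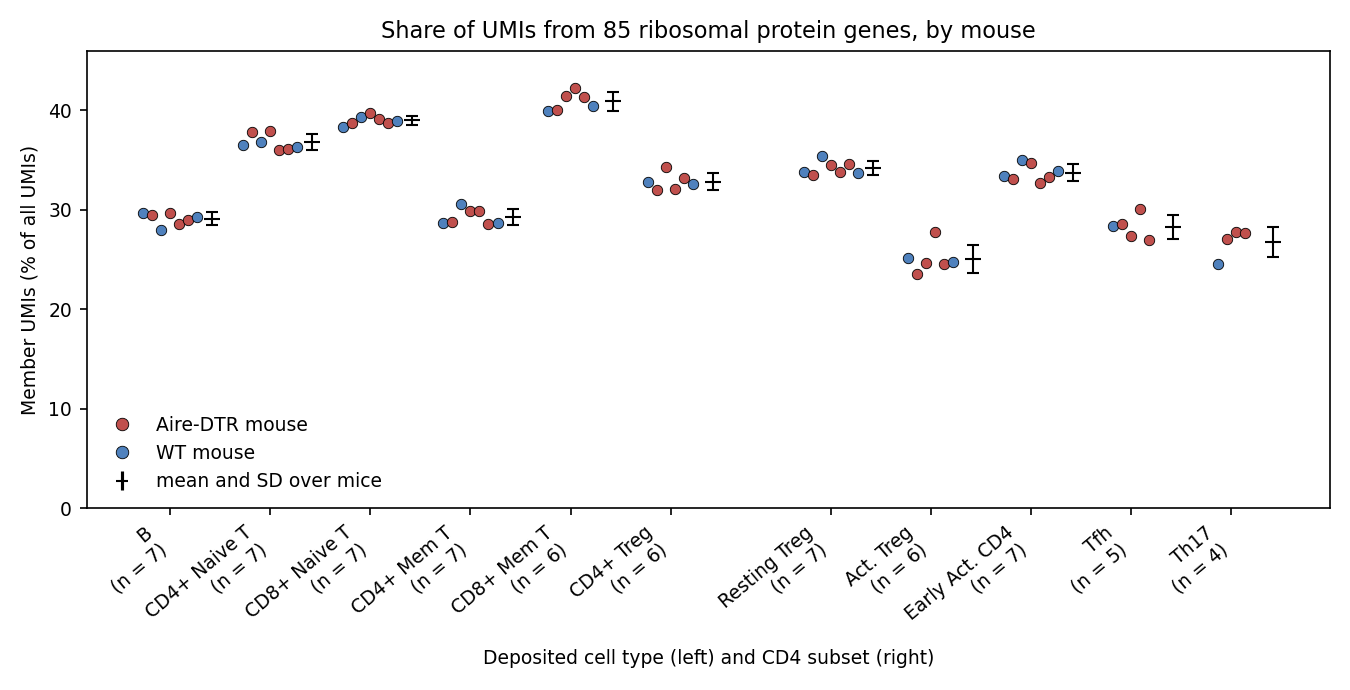
Share of all UMIs (vertical axis, %) that came from the 85 ribosomal protein genes, 1 point a mouse (red Aire-DTR, blue WT), by deposited cell type and CD4 subset; crosses give the mean and SD over mice. CD4+ Mem T mice sit between 28.6% and 30.6%, below all CD4+ Naive T mice (36.03% to 38.0%), and Act. Treg mice (23.6% to 27.8%) below all Resting Treg mice (33.5% to 35.4%).

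The lower share in CD4+ Mem T cells went with more UMIs from other genes, while member UMIs per cell differed by less than 1 SD over mice. Per cell, CD4+ Naive T cells held a mean of 1112 ± 82.1 member UMIs (SD, n = 7) and 1910 ± 147 other UMIs, and CD4+ Mem T cells 1074 ± 82.2 and 2590 ± 179. B cells held fewer of both, 748 member UMIs and 1822 others. CD8+ Naive T cells held 1413 and 2208, and CD8+ Mem T cells 2044 and 2948. Counts per cell also carry the depth of each droplet, so RNA content and capture cannot be told apart.

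The authors named a subset for 850 of the CD4 cells, and activated subsets had lower shares than resting or early ones. These cells also carry a type name and are counted in the types above, so subset and type values are not independent. Resting Treg (266) and Act. Treg cells (155) together outnumber the 328 CD4+ Treg cells, so some carry another type name. Resting Treg cells had 34.2% ± 0.677 (SD, n = 7) and Early Act. CD4 cells 33.8% ± 0.840 (n = 7). Act. Treg cells had 25.1% ± 1.42 (n = 6), Th17 cells 26.8% ± 1.51 (n = 4) and Tfh cells, the helpers of B cells in follicles, 28.3% ± 1.22 (n = 5). Act. Treg values by mouse were 23.6% (mouse 4), 24.6% (36), 24.7% (7 and 97), 25.1% (1) and 27.8% (8). All lie below the lowest Resting Treg value of 33.5%, and the paired difference was −8.91 points (SD 1.54, lower in 6 of 6 mice). Tfh cells were below Early Act. CD4 cells by −5.19 points (SD 1.82, 5 of 5 mice) and Th17 cells by −6.88 (SD 1.43, 4 of 4).

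In the 6 mice with enough cells of both, Act. Treg cells held 832 ± 150.4 member UMIs per cell (SD) and Resting Treg cells 937 ± 55.7. The paired difference was −105 (SD of differences 115), with 5 mice lower and mouse 8 higher. Other UMIs were at 2474 ± 339 and 1819 ± 97.8, higher in Act. Treg cells of 6 of 6 mice. Large-subunit members had more UMIs than small-subunit members in each type, with a ratio from 1.19 in CD4+ Naive T to 1.32 in NK cells, and 1.29 in Act. Treg cells. Large-subunit genes made 20.1% and small-subunit genes 16.9% of all UMIs in CD4+ Naive T cells, and 16.1% and 12.98% in CD4+ Mem T cells, so both subunits had the lower share.

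Depth per cell differed between types and moved with the share. Median UMIs per cell were 2903 in CD4+ Naive T, 3268 in CD4+ Mem T, 2523 in CD4+ Treg, 3446.5 in CD8+ Naive T, 5102 in CD8+ Mem T and 2261 in B cells. In CD4+ Naive T cells the share was 31.1% in cells below 1500 UMIs, 34.4% in those from 1500 to below 2500, 36.9% from 2500, 38.8% from 3500 and 38.6% from 5000 UMIs upward. CD4+ Mem T cells had 23.2%, 25.03%, 28.2%, 30.2% and 30.7% in the same bins, below the naive cells in each. B cells had 25.2%, 27.8%, 29.5%, 30.6% and 33.1%. Among cells of 3000 to 5000 UMIs, a window chosen after seeing the data, CD4+ Mem T cells stayed below CD4+ Naive T cells, by −8.51 points (n = 6).

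CD8+ Mem T cells did not keep their place. Their share exceeded that of CD8+ Naive T cells by 1.97 points (SD 0.753, higher in 6 of 6 mice) over all cells, and differed by −0.25 (n = 4) among cells of 3000 to 5000 UMIs. In the bins they had 30.4% against 35.99% from 1500 UMIs, 35.1% against 38.1% from 2500, 40.1% against 39.9% from 3500 and 42.1% against 39.8% from 5000. The lowest of these 4 bins holds 15 CD8+ Mem T cells. In the same window the excess of CD8+ Naive over CD4+ Naive T cells was 1.27 points (n = 7), and the CD4+ Treg difference was −1.97, from 2 mice.

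**Figure D2:**
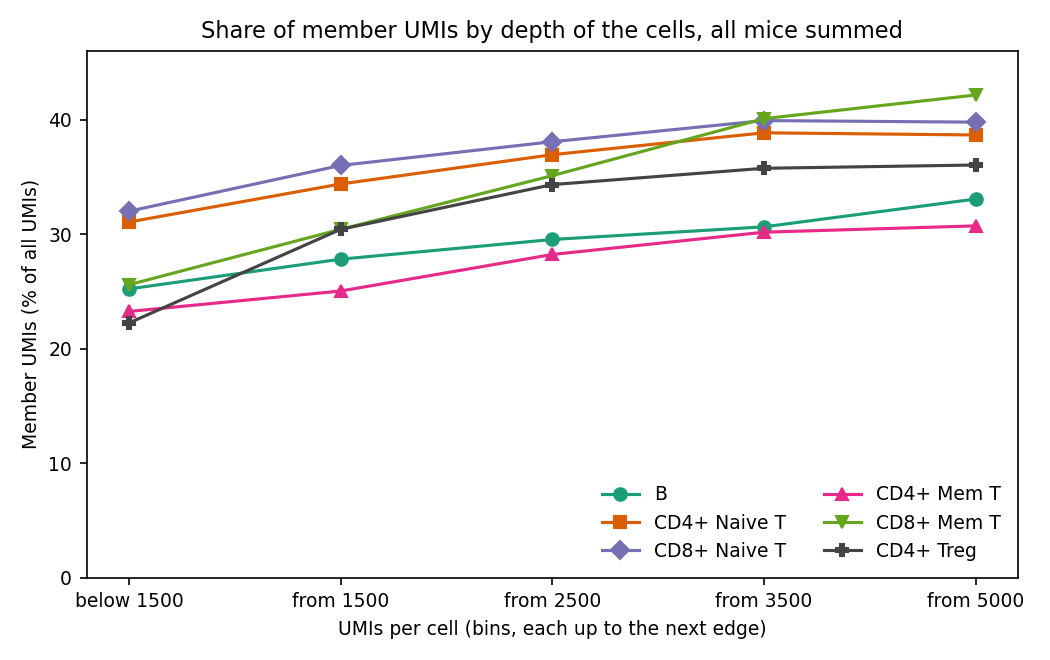
Share of all UMIs from the 85 genes (vertical axis, %) in cells binned by their own UMI count (horizontal axis), all mice summed, 1 line a cell type. The line of CD4+ Mem T cells runs below that of CD4+ Naive T cells in all 5 bins, and the line of CD8+ Mem T cells crosses that of CD8+ Naive T cells; the lowest bin of CD8+ Mem T holds 5 cells and the highest of CD4+ Treg 13.

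Myeloid cells were a mixture. Their cell shares had a lower quartile of 4.59%, and 5 cells with at least 10% of UMIs from a fixed list of 5 erythroid genes (Hbb-bs, Hbb-bt, Hba-a1, Hba-a2, Alas2) had a member share of 3.23%, against 23.3% in the other 68. Those 5 cells came from 3 mice of pools 1 and 2. The summed erythroid list was at 69482 CPM (counts scaled to a fixed total) in Myeloid and 1580 in NK cells. It was at 424 CPM in CD4+ Naive T, 579 in CD4+ Mem T, 708 in CD4+ Treg, 366 in CD8+ Naive T, 378 in CD8+ Mem T and 773 in B cells. These sums pool mice of unlike levels: globin genes made 0% to 0.00256% of a type's UMIs in mice of pool LN and 0.0419% to 0.209% in those of pools 1 and 2. Within the mice of pools 1 and 2, the globin share was lower in CD4+ Mem T than in CD4+ Naive T cells in 3 of 4, higher in CD4+ Treg cells in 3 of 3 and higher in B cells in 3 of 4. The part of this list in the results was not tested.

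Single members mostly followed the sum. Of 81 members with at least 50 CPM in both cell types, 78 were lower in CD4+ Mem T than in CD4+ Naive T cells and 3 were higher, beside 29.6% and 70.4% of all genes. In every one of the 7 mice, 69 were lower and 2 higher, while of all 2422 genes measured 7.43% were lower and 20.2% higher in every mouse. The median log2 ratio of members was −0.30 beside 0.16 for all genes, and that of their sum was −0.33 (SD 0.045). CPM are shares of a total of which members are a large part, so a lower member sum raises the CPM of other genes.

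Small-subunit genes were prominent at the lower end. Rps24 was at 9309 ± 1096 CPM (SD, n = 7) in CD4+ Mem T and 13180 ± 914.0 in CD4+ Naive T cells, a log2 ratio of −0.51. By mouse its memory values were 8320 (mouse 1), 8449 (7), 8604 (4), 8660 (36), 9539 (97), 10572 (8) and 11021 (6), and its naive values 12237 (1), 12385 (7), 12453 (4), 13100 (36), 13306 (97), 14350 (6) and 14434 (8). The ranges do not overlap, and both mice of pool 1 are highest in each type. Rps19, mutated in Diamond-Blackfan anaemia, had a log2 ratio of −0.50 (4252 against 6017 CPM) and Rps20 of −0.50 (7906 against 11165). Rps29 was at −0.49, Rps21 at −0.46 and the large-subunit gene Rpl8 at −0.49, each lower in 7 of 7 mice.

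Rps27l and Rpl7l1, named as relatives of standard genes, were at the upper end. The relatives Rpl22l1 (1071 against 1284 CPM) and Rpl36al (888 against 957 CPM) were lower in CD4+ Mem T than in CD4+ Naive T cells. Rps27l, a p53 target whose protein is close to that of Rps27, was at 163 ± 40.6 CPM (SD, n = 7) in CD4+ Mem T and 104 ± 11.7 in CD4+ Naive T cells. Its memory values were 109 (mouse 8), 143 (4), 144 (6), 159 (97), 162 (36), 184 (1) and 239 (7), and its naive values 89.9 (6), 94.3 (8), 94.4 (36), 105 (4), 109 (1), 114 (97) and 121 (7). The lowest memory mouse lies inside the naive range, but each mouse was higher in its memory than in its naive cells. The mean log2 ratio was 0.63 (SD 0.25). Rpl7l1, whose product acts in the making of the large subunit, had 0.43 (75.1 against 56.7 CPM, 7 of 7 mice), but 0.15 with an SD of 0.91 (n = 5) in udLN alone. Rps12 (−0.08), Rpl7a (−0.05) and Rpl24 (−0.04) lay close to 0. Among cells of 3000 to 5000 UMIs Rps12 was at −0.19 (SD 0.097, n = 6).

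**Figure D3:**
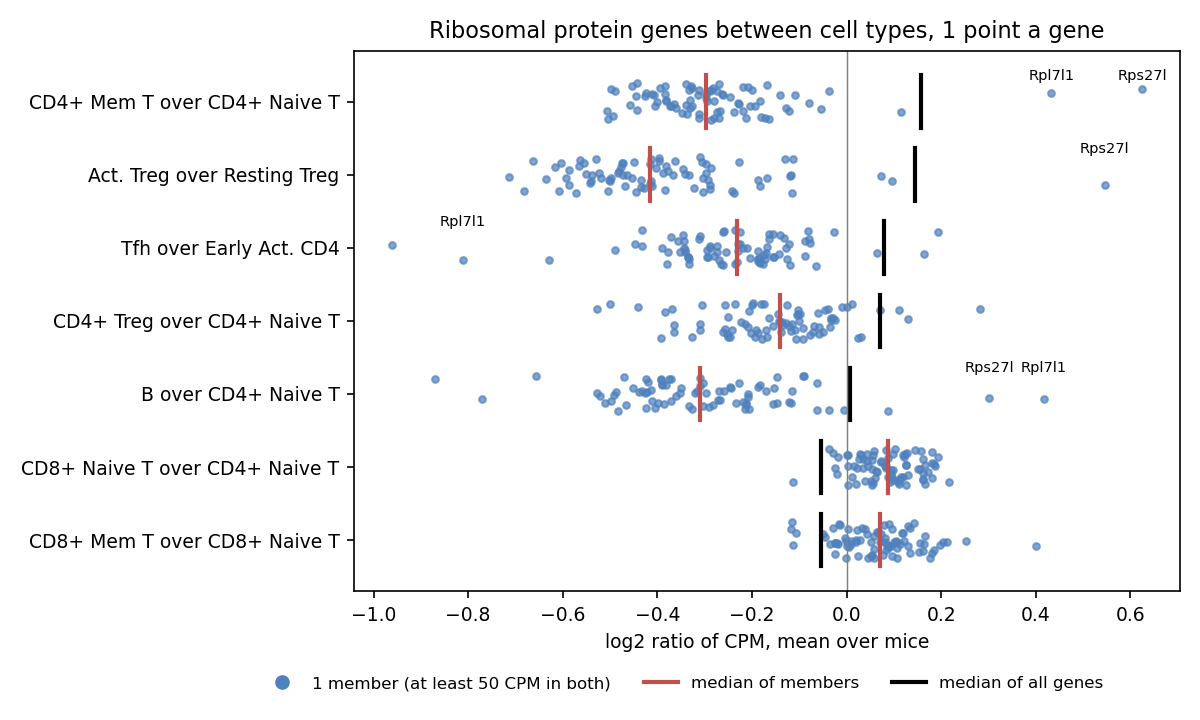
Log2 ratio of CPM between cell types or CD4 subsets (horizontal axis, mean over mice), 1 point a member of at least 50 CPM in both; red bars are medians of members and black bars medians of all genes measured. For CD4+ Mem T over CD4+ Naive T the red bar is at −0.30 and the black bar at 0.16, with Rps27l (0.63) and Rpl7l1 (0.43) far right of the other members.

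In Act. Treg against Resting Treg cells, 78 of 81 members were lower (35.9% of all genes), 63 of them in all 6 mice (5.57% of all genes). The median was −0.42 beside 0.14. Rps19 (−0.71), Rps16 (−0.68), Rpl8 (−0.66) and Rps24 (−0.62) were among the lowest. Rps27l was again the highest at 0.55 (SD 0.67, 6 of 6 mice), a mean that rests on 389 CPM in mouse 7 beside 110 to 179 in the other mice. Rps12 was at 0.10 (5 of 6 mice). In Tfh against Early Act. CD4 cells, 78 of 81 were lower (42.9% of all genes) and 51 in all 5 mice (7.43% of all genes). The median was −0.23 beside 0.08. Rps27l (0.19), Rps13 (0.16) and Rps12 (0.06) were the 3 above 0.

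In B cells, 78 of 81 members were below CD4+ Naive T cells (49.2% of all genes), 71 of them in all 7 mice (20.2% of all genes). The median was −0.31 beside 0.01. The stalk genes Rplp0 (−0.87) and Rplp1 (−0.77) were lowest. Rplp0 was at 5462 ± 397 CPM (SD, n = 7) in B and 9965 ± 234 in CD4+ Naive T cells, with mice from 4686 to 5833 and from 9689 to 10340. The stalk gene Rplp2 was at 3856 ± 221 and 5227 ± 313. Rps6, whose protein is the substrate of S6 kinase downstream of mTOR, had −0.51 (1120 against 1594 CPM). Rps12 (0.09), Rps27l (0.30) and Rpl7l1 (0.42, 7 of 7 mice) were higher in B cells.

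CD4+ Treg cells had 73 of 81 members below CD4+ Naive T cells (39.2% of all genes), 46 in all 6 mice (5.74% of all genes). The median was −0.14 beside 0.07. Rps29 was lowest (−0.53) and Rpl24 highest (0.28, higher in 6 of 6 mice, 1628 against 1341 CPM). CD8+ Naive T cells had 75 of 81 members above CD4+ Naive T cells (38.2% of all genes), 45 in all 7 mice (7.7% of all genes). The median was 0.09 beside −0.05, and Rps29 was lowest (−0.11, lower in 7 of 7). CD8+ Mem T cells had 63 of 81 above CD8+ Naive T cells (39.4% of all genes), 36 in all 6 mice (7.49% of all genes). The median was 0.07 beside −0.05. Rps12 led there at 0.40: it was at 3661 ± 452 CPM in CD8+ Mem T and 2766 ± 250 in CD8+ Naive T cells (SD; 6 of 6 mice higher).

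Within the member sum, a few genes changed their share with cell type. These shares sum the cells of all mice, so no spread over mice is given. No mouse had at least 20 gdT (73 in all), NK (54) or Myeloid cells (73). Of the 74 members with at least 100 UMIs in each of the 9 types, Rps12 varied most, from 0.540% of member UMIs in gdT cells to 0.903% in NK cells. It was at 0.657% in CD4+ Naive T, 0.885% in CD8+ Mem T and 0.899% in B cells. Rps19 ran from 1.02% in NK to 1.64% in B cells, and Rpl27 from 0.583% in CD8+ Naive T to 0.907% in NK cells. Rps9 reached 2.53% in Myeloid cells and was lowest, at 1.64%, in CD8+ Mem T cells. Rplp1 ran from 2.29% in B to 3.27% in CD8+ Naive T cells, and Rplp0 from 1.90% in B to 2.71% in CD4+ Naive T cells. Rps27 had a spread of 0.48 on the log2 scale. The other 11 members were too low to be ranked. One of them, Rps27l, ran from 0.0289% in CD4+ Naive T to 0.0708% in NK cells, the latter from 38 UMIs.

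Members that come as close relatives of a standard gene gave a ratio within the family. Rps27l made 10.9% ± 0.960 (SD, n = 7) of Rps27l plus Rps27 UMIs in CD4+ Naive T cells (9.62% to 12.2% over mice) and 18.7% ± 3.53 in CD4+ Mem T cells (13.4% to 24.1%), and these ranges do not overlap. It made 12.1% in CD8+ Naive T, 14.5% in CD8+ Mem T and 13.3% in B cells. Among CD4 subsets it was 14.0% in Resting Treg, 18.7% in Tfh, 20.6% in Th17 and 21.4% ± 8.98 (n = 6) in Act. Treg cells. Rps27 itself was at 702 ± 40.7 CPM in CD4+ Mem T and 847 ± 48.7 in CD4+ Naive T cells, so both genes moved the ratio.

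Rpl36al made 37.9% ± 1.89 (n = 7) of its pair with Rpl36a in CD4+ Naive T, 43.3% ± 4.53 in CD4+ Mem T and 34.1% ± 3.52 (n = 6) in CD8+ Mem T cells. In Th17 cells it reached 51.7% ± 4.70 (n = 4). Rpl22l1, whose protein is close to that of the RNA-binding Rpl22, made 30.3% ± 2.07 of its pair in CD4+ Naive T, 32.4% ± 1.92 in CD8+ Naive T and 26.6% ± 1.57 in B cells (n = 7). CD4+ Treg cells had 25.1% ± 3.203 (n = 6) and Th17 cells 24.4% ± 2.08 (n = 4). Rps4l held at most 0.74% of its pair with Rps4x (8 of 1086 UMIs in NK cells), and Rpl39l at most 0.04% of its pair with Rpl39 in each type and subset. Rpl39l had 2 UMIs beside 4635 of Rpl39 in Early Act. CD4 cells, where its share was highest.

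**Figure D4:**
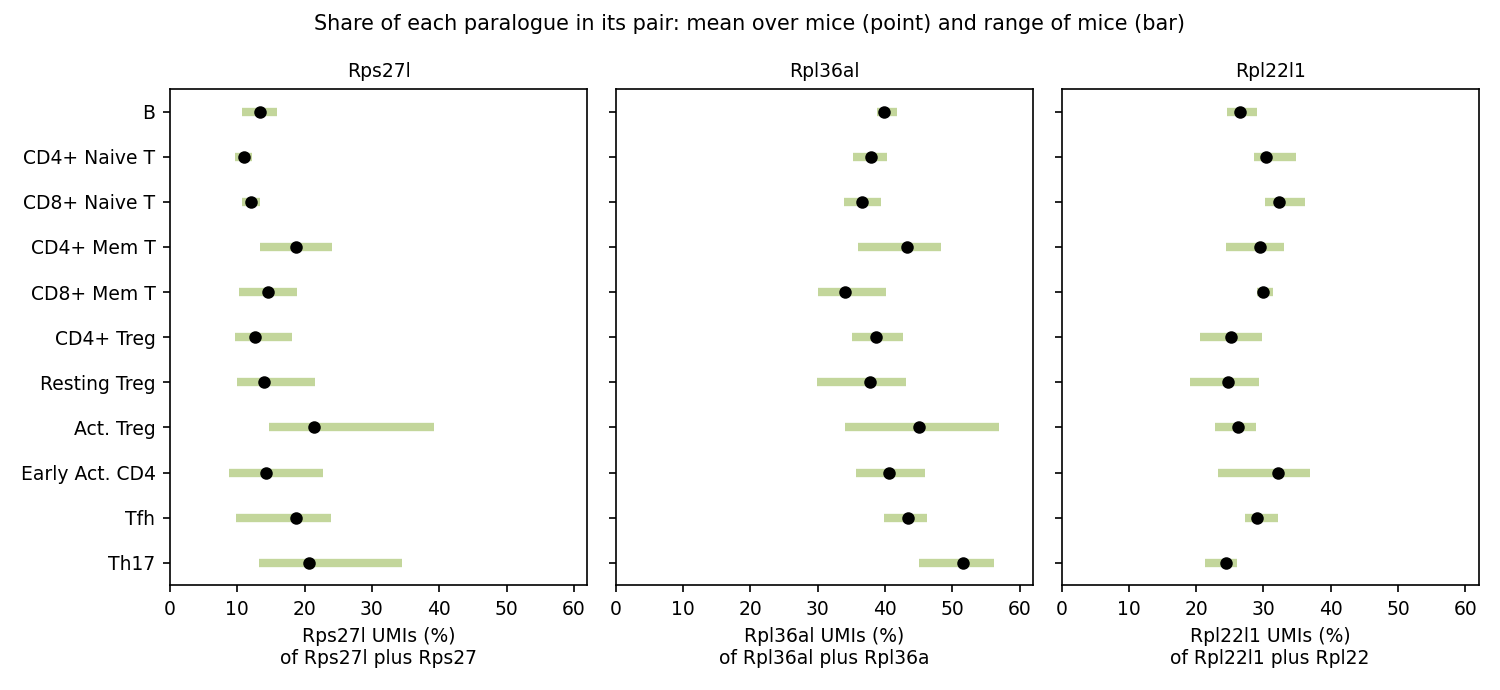
Share of UMIs of a relative in its pair (horizontal axis, %) for Rps27l with Rps27, Rpl36al with Rpl36a and Rpl22l1 with Rpl22, by cell type and CD4 subset; points are means over mice and bars the range of mice. Rps27l lies at 10.9% in CD4+ Naive T and 18.7% in CD4+ Mem T cells, and the bar of Act. Treg cells is the widest of its panel.

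Genes related to the members did not move as 1 block between CD4+ Mem T and CD4+ Naive T cells. Of 20 other TOP mRNAs, all measured, 14 were lower and 6 higher, where 29.6% of all genes were lower. In every mouse 8 were lower, beside 7.43% of all genes, and the median was −0.09 beside 0.16 for all genes. The elongation factors Eef1a1 (−0.35) and Eef2 (−0.35), Tpt1 (−0.39), the fusion gene Fau (−0.22), and Rack1 (−0.24), a scaffold of the small subunit, were lower in 7 of 7 mice. Vim, the intermediate filament vimentin (0.87), and Nap1l1 (0.55) were higher in 7 of 7. Of 30 ribosome biogenesis genes 16 were measured, 14 higher and 2 lower, where 70.4% of all genes were higher, with a median of 0.37. Higher in 7 of 7 mice were 3 of the 16 (18.8%, beside 20.2% of all genes), nucleolin Ncl (0.73), Nop58 (0.46) and Pes1 (0.42). Mitochondrial ribosome genes had 40 of 44 measured higher (median 0.21), where 70.4% of all genes were, and 7 (15.9%) were higher in every mouse. Genes of mitochondrial DNA had 7 of 9 lower (median −0.01), where 29.6% of all genes were.

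In Tfh against Early Act. CD4 cells all 17 measured biogenesis genes were lower, beside 42.9% of all genes. Lower in every mouse were 4 of the 17 (23.5%), beside 7.43% of all genes. The median of the 17 was −0.66, beside −0.23 for members. In B against CD4+ Naive T cells 15 of 20 other TOP mRNAs were lower (median −0.37), beside 49.2% of all genes. Biogenesis genes were split, 10 higher and 6 lower. Of 13 regulators of ribosomal protein translation only Rheb (0.41), Myc (0.86) and Eif4ebp2 (−0.16) reached 50 CPM in CD4+ Mem T and CD4+ Naive T cells. Members with a match at the RefSeq start had a median log2 ratio of CD4+ Mem T to CD4+ Naive T of −0.29 (18 members). Those without a match had −0.28 (43), a set that can still hold genes with a TOP motif, such as Rps24.

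Between the nodes of 1 mouse, the mean difference in member share was below the SD of the differences over mice in the 4 cell types tested. The udLN minus brLN difference was 0.258 points (SD 0.940, n = 7) in B, −0.740 (SD 0.995, n = 6) in CD4+ Naive T, 0.133 (SD 0.970, n = 6) in CD8+ Naive T and −1.21 (SD 1.99, n = 5) in CD4+ Mem T cells. Two-sided exact sign-flip permutation p-values were 0.531, 0.188, 0.781 and 0.312, and adjusted over the 4 types 0.625 to 0.781. With 5 mice the smallest p possible is 0.0625. In CD4+ Mem T cells the udLN values by mouse were 26.5% (36), 27.3% (7), 28.1% (4), 29.1% (1) and 30.2% (8), and the brLN values of the same mice 29.4%, 30.7%, 29.4%, 28.2% and 29.5%, lower in udLN in 3 of 5.

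No member passed edgeR's quasi-likelihood test with adjusted p below 0.05 in a node comparison. In B cells 0 of 82 were called (0.0479% of all genes were), and 0 had an unadjusted p under 0.05, as 4.91% of all genes did. In CD4+ Naive T cells 0 of 82 were called (0.119% of all genes), and 10 (12.2%) were under 0.05 unadjusted, beside 6.17% of all genes. In CD8+ Naive T cells 0 of 82 were called (0.124%), and 2 (2.44%) were under 0.05, beside 5.32%. In CD4+ Mem T cells 0 of 81 were called (0.66%), and 7 (8.64%) were under 0.05, beside 8.13%. DESeq2 called 0 members in each of the 11 comparisons of nodes and genotypes. The direction of these small estimates differed between types. Below 0 were 77 of 82 members in CD4+ Naive T cells (median −0.04 on the log2 scale; 50.6% of all genes) and 74 of 81 in CD4+ Mem T cells (median −0.09; 52.4%). Above 0 were 65 of 82 in B cells (median 0.03; 50.8% of all genes) and 54 of 82 in CD8+ Naive T cells (median 0.01; 50.5%).

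By p, the first members were Rpl22l1 in CD4+ Naive T cells (log2 −0.15, SE 0.053, edgeR adjusted p = 0.551) and Rpl18 in CD4+ Mem T cells (−0.18, SE 0.073, adjusted p = 0.443). Rpl22l1 was at 1315 CPM in brLN and 1207 in udLN of mouse 1, 1355 and 1207 in mouse 4, 1445 and 975 in mouse 6, 1290 and 1287 in mouse 7, 1441 and 1357 in mouse 8, and 1240 and 1149 in mouse 36. It was lower in udLN in 6 of 6 mice, by very little in mouse 7. Rpl18 was lower in udLN of 5 of 5 mice, at 4438 to 5361 CPM, against 5375 to 5739 in brLN, and these ranges do not overlap. Rpl13a, a subunit protein with a role outside the ribosome in inflammation, was higher in udLN of 6 of 6 mice in CD8+ Naive T cells (3311 against 3107 CPM, log2 0.09, adjusted p = 0.673). In B cells Rpl5, Rpl39 and Rplp0 had the smallest p, each with an edgeR adjusted p of 0.9998. The only gene of the related lists that passed was Vim, which fell in udLN CD4+ Mem T cells by 1.06 (log2; edgeR adjusted p = 3.65e-06, SE 0.13).

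Between Aire-DTR and WT mice, member shares were compared in 9 combinations of node and cell type, with exact permutation p adjusted over the 9 at 0.971. The smallest p that these group sizes allow lies between 0.0571 and 0.2, so none of the 9 could pass the threshold of 0.05. The largest difference was in CD4+ Mem T cells of brLN, 29.8% ± 0.629 (SD, n = 4) against 28.5% ± 0.312 (n = 2), at 1.297 points. Aire-DTR values were 29.4% (mice 36 and 4), 29.5% (8) and 30.7% (7), and WT values 28.2% (1) and 28.7% (97), so the groups did not overlap. The two-sided exact permutation p was 0.133, the smallest this design allows. Within pools the difference was 0.743 in pool 2 and 1.82 in pool LN. As the mean of the cells' own shares it was 0.695. In CD4+ Naive T cells the difference was 0.380 in brLN (n = 4 and 3) and 0.726 in udLN (n = 4 and 2). Within pools of brLN it was −1.01 in pool 1, 0.183 in pool 2 and 1.33 in pool LN, so its sign changed. Whether the node difference depends on genotype was tested in 3 cell types, and the exact permutation p was 0.971 (B), 0.667 (CD4+ Naive T) and 0.8 (CD8+ Naive T). These groups held 4 and 3 mice in B cells and 4 and 2 in the other types, so here too no p below 0.05 was possible.

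No member was called between genotypes by edgeR in 7 comparisons with pool as a term. In brLN these were 0 of 82 in B (0.058% of all genes called), CD4+ Naive T (0.0184%) and CD8+ Naive T cells (0.0297%), and 0 of 81 in CD4+ Mem T cells (0.0924%). Unadjusted p was under 0.05 for 0, 0, 1 and 11 of them (0%, 0%, 1.22% and 13.6%), beside 4.22%, 4.85%, 4.89% and 4.31% of all genes. In udLN they were 0 of 82 in B (0% of all genes), CD4+ Naive T (0.0828%) and CD8+ Naive T cells (0.0756%), with 2, 11 and 4 under 0.05 (2.44%, 13.4% and 4.88%), beside 3.54%, 5.44% and 5.52% of all genes. CD4+ Mem T cells of udLN could not be compared, since 1 WT mouse alone had at least 20 such cells there. Rpl39l, Rpl37rt and Rps4l were too low to be tested. In brLN, 65 of 81 members were above 0 in CD4+ Mem T cells (median 0.09; 49.4% of all genes) and 50 of 82 in CD4+ Naive T cells (median 0.02; 49.9%), while 55 of 82 were below 0 in B (median −0.02; 50.4% of all genes) and in CD8+ Naive T cells (median −0.01; 50.1%). In udLN, 67 of 82 were above 0 in CD4+ Naive T (median 0.07), 68 in CD8+ Naive T (median 0.03) and 42 in B cells (median 0.00460), beside 51.4%, 51.4% and 51.8% of all genes.

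Rpl10a, a large-subunit protein, had the smallest p of any member, in CD4+ Mem T cells of brLN. It was at 2039 (mouse 7), 2047 (4), 2066 (8) and 2184 CPM (36) in Aire-DTR mice and at 1548 (1) and 1716 CPM (97) in WT mice. The groups do not overlap, and the log2 difference was 0.39 (SE 0.10, edgeR adjusted p = 0.228). With no filter on low counts it was 0.47 with an adjusted p of 0.0314, the only alternative that moved a member past the threshold. Rpl32 (0.18) and Rpl26 (0.24) followed there, both with an adjusted p of 0.825. Rpsa, the laminin-receptor protein of the small subunit, was at 10390 ± 295 CPM (SD, n = 4) against 9724 ± 358 (n = 2) in CD8+ Naive T cells of udLN (log2 0.13, edgeR adjusted p = 0.271). Rpl3 was at 3637 ± 211 against 3300 ± 53.7 in CD4+ Naive T cells of udLN (0.20, adjusted p = 0.562), with mouse values of 3378 (36), 3553 (8), 3776 (4) and 3839 (7) against 3262 (6) and 3338 (1).

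**Figure D5:**
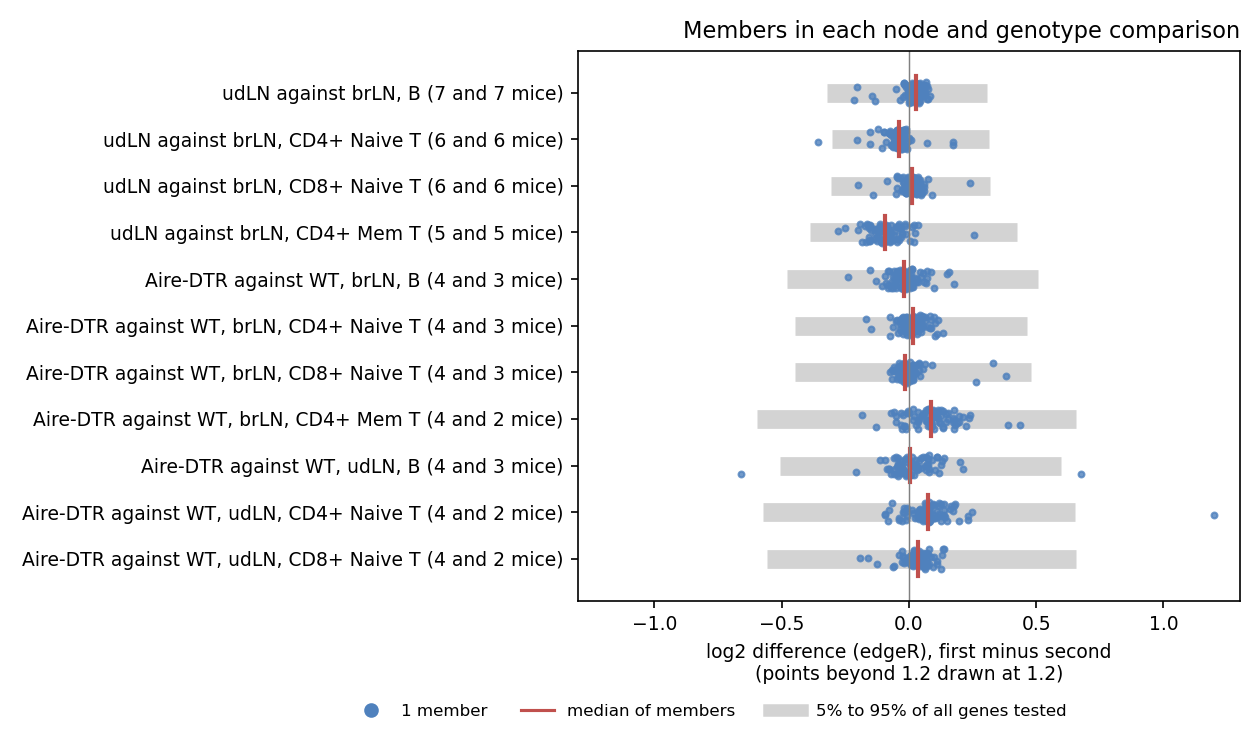
Log2 difference from edgeR (horizontal axis, first named group minus second; points beyond 1.2 are drawn at 1.2) of each member tested, in 4 node and 7 genotype comparisons; red bars are medians of members and grey bars span 5% to 95% of all genes tested. No point passed the adjusted threshold, and most members lie inside the grey bars, near 0. The bars also hold less precise estimates: the median SE of a comparison was 0.0361 to 0.0827 for members and 0.176 to 0.354 for all genes. A place inside the bars therefore does not show that a member was unchanged.

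Some members, like some of all genes, stood apart in both mice of pool 1, which holds 1 mouse of each genotype. The counts below are of CPM, not of shares within the member sum. In B cells the member share was 27.9% and 28.6% in the pool 1 mice, beside 29.03% to 29.7% in the other mice. Among 82 members of at least 50 CPM in B cells, 7 were higher in both pool 1 mice than in each other mouse (9.9% of all genes) and 27 lower (6.94%). In CD4+ Naive T cells these were 15 and 15 of 81 (9.12% and 8.18% of all genes), and in CD8+ Naive T cells 14 and 13 (8.11% and 10.8%). In all 3 types Rpl9, Rpl17, Rpl24, Rps3a1, Rps24 and Rps28 were higher, and the lower members included Rpl18, Rpl32, Rplp1 and Rps23. Rps28 was at 3766 and 3774 CPM in the CD4+ Naive T cells of pool 1 and at 2991 to 3244 in the other mice. Rpl17 was at 1556 and 1614 CPM there against 1015 to 1225, and Rplp1 at 10058 and 10182 against 10602 to 12282. Log2 ratios of pool 1 to the other mice were 0.24, 0.28 and 0.33 for Rps28, and 0.46, 0.53 and 0.50 for Rpl17, in B, CD4+ Naive T and CD8+ Naive T cells. In both mice of pool 2, 5 of 82 members were higher in B cells (3.54% of all genes) and 0 lower (4.48%). In CD4+ Naive T cells 0 of 81 were higher (5.74%) and 10 lower (3.70%), and in CD8+ Naive T cells 0 higher (5.09%) and 3 lower (3.64%). Pool was a term in the gene tests of genotype.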

How the data were processed

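Droplet-based 3′ single-cell RNA libraries were made by the authors from hashtagged lymph node cells, 3 pools in 2 wells each. Values deposited by the authors are UMI counts, not normalized, with tables of each cell's mouse, node, type and CD4 subset. The submitters' processing notes name GRCm38 as build and Seurat, Scanpy 1.7.0, kallisto 0.46.1 and bustools 0.40.0 as tools. Their settings, the treatment of reads shared between genes, the cell filter and any doublet removal are not given in the sources used for this work. No doublets were removed here.

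Cells listed a second time were used once. Counts were summed per mouse, node and type (at least 20 cells; 10 for a CD4 subset, both nodes summed), so the mouse is the replicate. Shares are member UMIs over all UMIs. Nodes were compared by an exact sign-flip test over mice and genotypes by an exact permutation test, both two-sided. Genes were tested with edgeR 4.0.16 (R 4.3.3): filterByExpr, TMM, quasi-likelihood test, mouse as block for nodes and pool as term for genotypes, Benjamini-Hochberg over all genes tested, threshold 0.05. SEs were taken as the fitted log2 difference divided by the root of its F value. DESeq2 1.42.0 was an alternative. Ratios between types used genes of at least 50 CPM in both. The scripts were tested on simulated data. Tables used pandas 2.3.3, numpy 2.4.6 and scipy 1.17.1.

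Named genes followed a rule: the 3 smallest p of a comparison where fewer than 5 members passed, the 6 highest and 6 lowest ratios of CD4+ Mem T to CD4+ Naive T, the 8 widest spreads over types, the 5 highest levels, the pairs of relatives, the stalk genes, Rps6 and Rpl13a. Some genes that the rule names are not reported here; they stay in the sums, counts and fits. Extremes of the other ratios, and members seen apart in pool 1, were chosen after their values were seen. Members and lists were chosen with earlier results of these data known. Rpl3l and Rpl10l had no value. Gene coordinates come from GENCODE's GRCm38 annotation by symbol, and 31-base words from its transcripts.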

Additional observations from a re-analysis of the deposited data

Results flagged for a closer look

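Of 72 groups of 4 to 10 samples reported, 4 had a sample far from the others by Dixon's criterion, and chance flags about 1 in 20, which is 3.6 groups. Mouse 8 had a member share of 27.8% in Act. Treg cells, where the other 5 mice had 23.6% to 25.1%. Mouse 7 had 30.7% in CD4+ Mem T cells of brLN, above the 29.4% to 29.5% of the other Aire-DTR mice. The same mouse had 38.6% in CD8+ Naive T cells of udLN, below their 39.3% to 39.4%. Rps29 was at 8864 CPM in CD4+ Naive T cells of mouse 8, against 7392 to 7963.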

How the results depend on the processing

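For 79 results, 1037 values were recomputed under alternatives, and 1025 kept their direction and their side of the threshold or stayed within the spread over mice. Among cells of 3000 to 5000 UMIs, a window chosen after seeing the data, the CD8+ Mem T minus CD8+ Naive T share turned to −0.25 points, the CD4+ Treg minus CD4+ Naive T share was −1.97 and the CD8+ Naive T minus CD4+ Naive T share 1.27. The genotype difference of CD4+ Mem T shares in brLN was 0.695 as the mean of the cells' own shares. Without a filter on low counts 1 member, Rpl10a (log2 0.47), was called there; the cause was not tested in any of these. Leaving out 1 mouse moved the genotype difference of the CD8+ Naive T node contrast from −0.101 to 0.769, the upper value without mouse 7. In 70 gene fits without 1 mouse 0 members were called; where 1 WT mouse was left, it was taken to vary like the Aire-DTR mice. A minimum of 50 cells left too few mice for some of the share comparisons, which then have no value. Each node alone and the cells as deposited were also added after seeing the data. No paired analysis was possible by well number because mice and nodes were mixed in each well; nodes were paired by mouse. Sums of under 100 cells, such as 20 B cells of udLN in mouse 97, limit what single members can show.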
